A study of Rattus norvegicus with 16 samples.

Results

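The livers of rats given D3T were set against the livers of rats given TBD, 8 of the 16 arrays of the study. Both compounds are dithiolethiones, small sulfur-containing ring compounds: D3T is 3H-1,2-dithiole-3-thione, the ring with no substituent, and TBD is the same ring with a bulky tert-butyl group on ring carbon 5. The arrays were chosen by their titles, 4 for D3T and 4 for TBD, and every probe set on them was considered. The animals were male Fischer F344 rats, 6 weeks old and 80 to 100 g on arrival, housed singly and assigned to groups at random. D3T and TBD were given by gavage at the same dose, 0.3 mmol/kg, every other day for 5 days, and the rats were killed 24 h after dose number 3. The 4 vehicle livers, from rats gavaged with saturated sucrose, are titled as untreated, and serve here as the background level. The 4 livers of rats given OLT (oltipraz, a dithiolethione with a methyl and a pyrazinyl group) at 0.3 mmol/kg entered the fit and are quoted only beside it. The design text names 16 rats for 16 arrays but ties no array to a rat, so the p-values measure the spread between these arrays. There was 1 pair of compounds, 1 dose and 1 time to compare, in a whole liver extract in which fewer cells of a type and less RNA per cell cannot be told apart.

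Dithiolethiones are known as cancer-preventive agents in rat liver, where they act on the sensor protein KEAP1 and release the transcription factor NRF2. NRF2 binds antioxidant response elements and raises enzymes that conjugate or reduce electrophiles, such as glutathione transferases, quinone reductase and aldo-keto reductases. Hepatocytes also sense foreign compounds through the nuclear receptors CAR and PXR, which raise cytochromes P450 of the 2B and 3A subfamilies, and they sense sterol shortage through SREBP proteins, which raise the enzymes of cholesterol synthesis.

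Few genes told the livers of the compounds apart. A threshold of an adjusted p under 0.05 (limma, Benjamini-Hochberg over 5323 probe sets) was passed by 35 probe sets, 0.658% of those tested: 10 were higher with D3T (0.188%) and 25 were lower with D3T (0.47%). Of the 35, 20 were at least 2-fold apart, 3 higher and 17 lower with D3T. In all 35 the 4 D3T values lay wholly above or wholly below the 4 TBD values, as they did in 490 of the 5323 probe sets tested (9.21%). In the same fit 981 probe sets (18.4%) differed between D3T and vehicle and 693 (13%) between TBD and vehicle. These 2 comparisons share the vehicle arrays and are given side by side only. For 4665 probe sets, 87.6% of those tested, the 95% interval of the difference lay within 2-fold either way. An unadjusted limma p under 0.05 was met by 534 of the 5323 probe sets tested, 324 higher and 210 lower with D3T. The count of 35 became 23 without D3T replicate 2, 19 without D3T replicate 3, 19 without TBD replicate 3 and 22 without TBD replicate 4, and it was 8 in a fit to the 8 D3T and TBD arrays alone and 124 with array weights. The split of higher and lower, 28.6% higher with D3T, moved with scaling: it was 20 higher and 30 lower after renewed quantile normalization, 2 and 11 (15.4% higher) after centring array medians, and 85 and 32 (72.6% higher) with each array's 40th percentile as a covariate.

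Per gene, read on its brightest probe set, 18 of 3104 genes passed (0.58%), 6 higher (0.193%) and 12 lower (0.387%) with D3T. All 4 values were apart in 260 genes (8.38%), with D3T above TBD in 187 (6.02%) and below it in 73 (2.35%). The genes lower with D3T included 4 enzymes of drug metabolism that CAR or PXR control and 1 enzyme of cholesterol synthesis. Those higher with D3T included an alkenal reductase, a steroid dehydrogenase and the rate-controlling enzyme of gluconeogenesis. Among the 18, the difference was widest at Msmo1 (-2.60 on the log2 scale) on the lower side and at Ptgr1 (2.02) on the higher side.

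**Figure D1:**
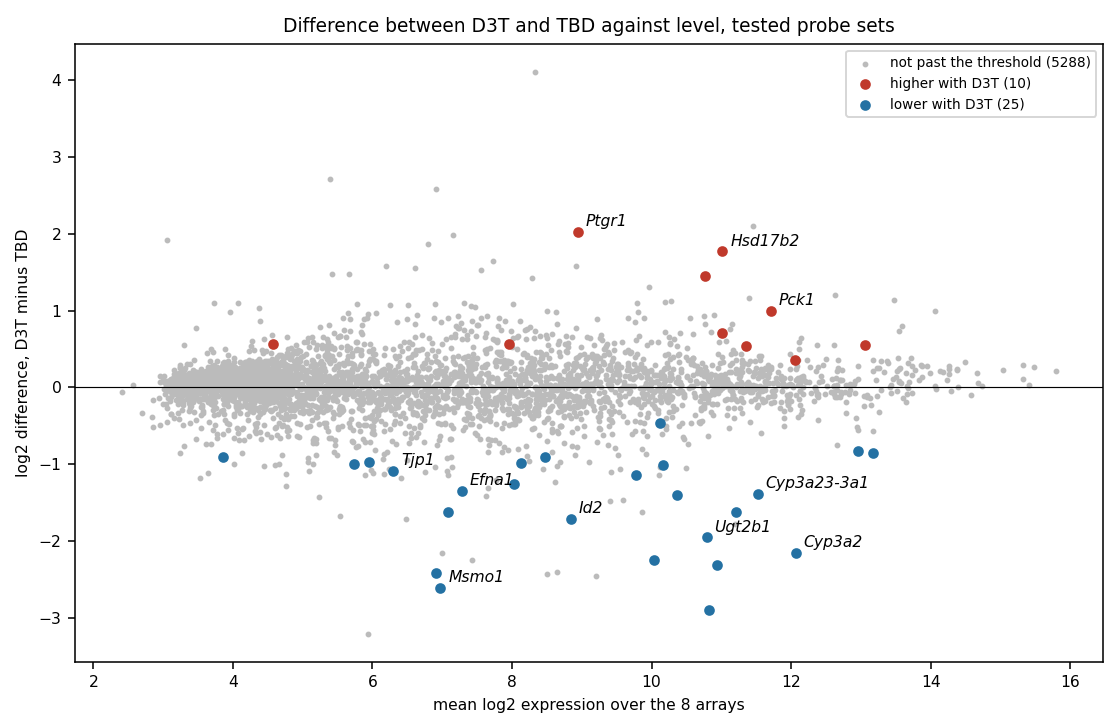
Each point is 1 of 5323 tested probe sets, with its mean log2 expression over the 8 arrays on the x axis and its log2 difference, D3T minus TBD, on the y axis. Red marks the 10 probe sets higher and blue the 25 lower with D3T at an adjusted p under 0.05; the 5288 grey ones did not pass, and the grey point farthest from 0 lies at 4.10.

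Array scale and spread stand beside these results. The median log2 value of an array was 3.48 ± 0.046 (SD, n = 4) with D3T and 3.41 ± 0.061 with TBD, a difference of 0.066 (exact permutation test, two-sided, p = 0.143; the smallest p that 4 against 4 allows is 0.0286). The median difference over all tested probe sets was 0.06, and it was 0.01 after quantile normalization. The TBD arrays were more uneven than the D3T arrays: the SD was larger over the TBD arrays at 74.4% of probe sets, and correlations between arrays were 0.991 to 0.995 within D3T and 0.974 to 0.989 within TBD. TBD replicate 4 stood apart, with a mean correlation of 0.976 with its own group. Albumin, the main hepatocyte product, read 15.34 to 15.94 on the 8 arrays.

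The P450s of the 3A subfamily, which oxidise steroids and many drugs and are the classic targets of PXR, gave the firmest difference. Cyp3a2 read 11.14, 11.41, 10.77 and 10.64 in the D3T livers and 12.83, 12.89, 13.60 and 13.28 in the TBD livers (log2). Every D3T value lay more than 1 log2 unit below every TBD value. Cyp3a2 was 4.46-fold lower with D3T (log2 difference -2.16, SE 0.19, adjusted p = 0.000101). The vehicle livers averaged 13.61, so Cyp3a2 fell with D3T (-2.62, adjusted p = 1.35e-06), while the difference with TBD was -0.46 (adjusted p = 0.15). Cyp3a23-3a1 read 10.95, 11.05, 10.25 and 11.05 with D3T and 12.27, 12.56, 12.03 and 11.98 with TBD. It was 2.62-fold lower with D3T (-1.39, SE 0.18, adjusted p = 0.00162), and its D3T values lay below and its TBD values above the 4 vehicle values, which ran from 11.13 to 11.53. Against vehicle it fell with D3T (-0.54, adjusted p = 0.0461) and rose with TBD (0.84, adjusted p = 0.00589). The other 3 probe sets of Cyp3a23-3a1 passed as well, with differences of -1.62, -0.98 and -1.62. Genes of this subfamily are near-identical in places, so a probe set can bind transcripts of a relative. Of its other members tested, Cyp3a9 differed by -0.42 and Cyp3a18 by -0.11, and neither, named after their values were seen, passed.

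The 250 bases upstream of the start of the Cyp3a genes that differed are shown because both hold a direct repeat of the kind that PXR is known to bind in this subfamily, AGTTCA given again after any 3 bases. Capitals mark its match, which lies on the opposite strand and so reads TGAACT on either side of the spacer. The sequences are RefSeq's on the minus strand of build GRCr8, at chr12:14343858-14344107 for Cyp3a2 and chr12:14398804-14399053 for Cyp3a23-3a1.
Cyp3a2: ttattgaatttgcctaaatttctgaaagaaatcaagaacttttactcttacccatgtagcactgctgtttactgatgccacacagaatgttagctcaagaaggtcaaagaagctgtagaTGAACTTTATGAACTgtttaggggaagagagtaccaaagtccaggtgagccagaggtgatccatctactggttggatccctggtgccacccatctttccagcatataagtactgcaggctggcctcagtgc
Cyp3a23-3a1: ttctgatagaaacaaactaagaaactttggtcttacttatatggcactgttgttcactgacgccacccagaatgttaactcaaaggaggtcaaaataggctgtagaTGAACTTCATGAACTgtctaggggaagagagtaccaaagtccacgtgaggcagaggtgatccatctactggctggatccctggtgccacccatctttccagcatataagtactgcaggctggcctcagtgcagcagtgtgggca

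The match spans bases 131 to 117 upstream of the start in Cyp3a2 and 144 to 130 in Cyp3a23-3a1. Searched on both strands, this spelling was found in 2 of 27457 promoters of that length (0.00728%), the 2 printed here. The motif was chosen after the values were seen, and a match is a description of the letters, not of binding. The core of the antioxidant response element, TGA and GC with any 5 bases between them, lay in 10 of the 15 promoters held for the 18 genes that differed (66.7%), in 8 of the 25 held for the NRF2 targets (32%) and in 36.4% of all promoters. In the promoters of both Cyp3a genes it did not overlap the direct repeat. A dioxin response core, GCGTG, lay in 3 of the 15 (20%) and in 27.2% of all. A sterol response spelling, TCACNCCAC, lay in 1 of the 15 (6.67%), in 0 of the 12 promoters held for the cholesterol synthesis genes and in 0.976% of all.

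Over the 19 tested genes listed as targets of CAR and PXR, 4 were lower with D3T and 0 higher. Over all genes tested 0.387% were lower and 0.193% higher. The median difference was -0.18, against 0.06 over all genes. Of the 19, 8 were above 0, the highest at 0.98, where 2046 of all 3104 genes were above 0. Without OLT replicate 1 and TBD replicate 4, 1 of the 19 was called higher with D3T. In the fit to the 8 D3T and TBD arrays alone 1 of the 4 passed, Cyp3a2. Beside the Cyp3a genes, the 4 included Ugt2b1 and Cyp2c6v1. Ugt2b1, which glucuronidates steroids and drugs, read 9.92, 9.22, 9.69 and 10.41 with D3T and 11.30, 11.71, 11.85 and 12.19 with TBD. It rose against vehicle with both compounds, by 0.95 with D3T (adjusted p = 0.0278) and by 2.90 with TBD (adjusted p = 2.85e-05). The level with D3T was 3.87-fold lower than with TBD (-1.95, SE 0.28, adjusted p = 0.00405), and OLT, at a mean of 11.80, lay beside TBD at 11.76. Cyp2c6v1, a P450 of the 2C subfamily, averaged 12.55 ± 0.17 (SD, n = 4) with D3T and 13.38 ± 0.24 with TBD, and was 1.78-fold lower with D3T (-0.83, SE 0.16, adjusted p = 0.0328). Cyp2c6v1 still passed when D3T replicate 2 or TBD replicate 1 was left out, but not without any other single array, and its adjusted p was 0.106 without TBD replicate 3. Its second probe set gave -0.40 (adjusted p = 0.446).

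Cyp2b2, the P450 best known for its induction by phenobarbital through CAR, differed on 1 of its 2 probe sets. On the brightest, the D3T livers read 10.04, 10.61, 10.14 and 10.42 and the TBD livers 11.77, 11.91, 11.38 and 13.24, with no overlap. That difference of -1.77 (95% interval -2.71 to -0.83) had an adjusted p of 0.0999. The dimmer one, named after its values were seen, read 9.23, 9.40, 9.41 and 9.45 with D3T and 11.79, 11.99, 12.02 and 13.29 with TBD. It was 7.47-fold lower with D3T (-2.90, SE 0.50, adjusted p = 0.015; without TBD replicate 4, -2.56 and adjusted p = 0.0491). The vehicle livers averaged 8.84 on it, and the differences from vehicle were 0.54 with D3T (adjusted p = 0.523) and 3.44 with TBD (adjusted p = 0.000545). When the probe sets of the gene were averaged the difference was -2.34 (adjusted p = 0.0368).

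Other targets on the same list did not pass. Ephx1, microsomal epoxide hydrolase, averaged 12.95 ± 0.23 with D3T and 12.87 ± 0.39 with TBD against 11.20 with vehicle. Its difference of 0.08 had a 95% interval of -0.32 to 0.48, so a gap of 2-fold lay outside the interval. Aldh1a1, a retinal dehydrogenase, differed by 0.12 (-0.56 to 0.80), and Gstm1 by 0.19 (-0.05 to 0.44). Sult2a1, a hydroxysteroid sulfotransferase, differed by -0.37 (-1.19 to 0.45), and the sign turned without TBD replicate 4 (0.10). Abcc2, the canalicular export pump, named after its values were seen, averaged 9.42 with D3T and 10.03 with TBD, with no overlap (-0.61, adjusted p = 0.0999).

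**Figure D2:**
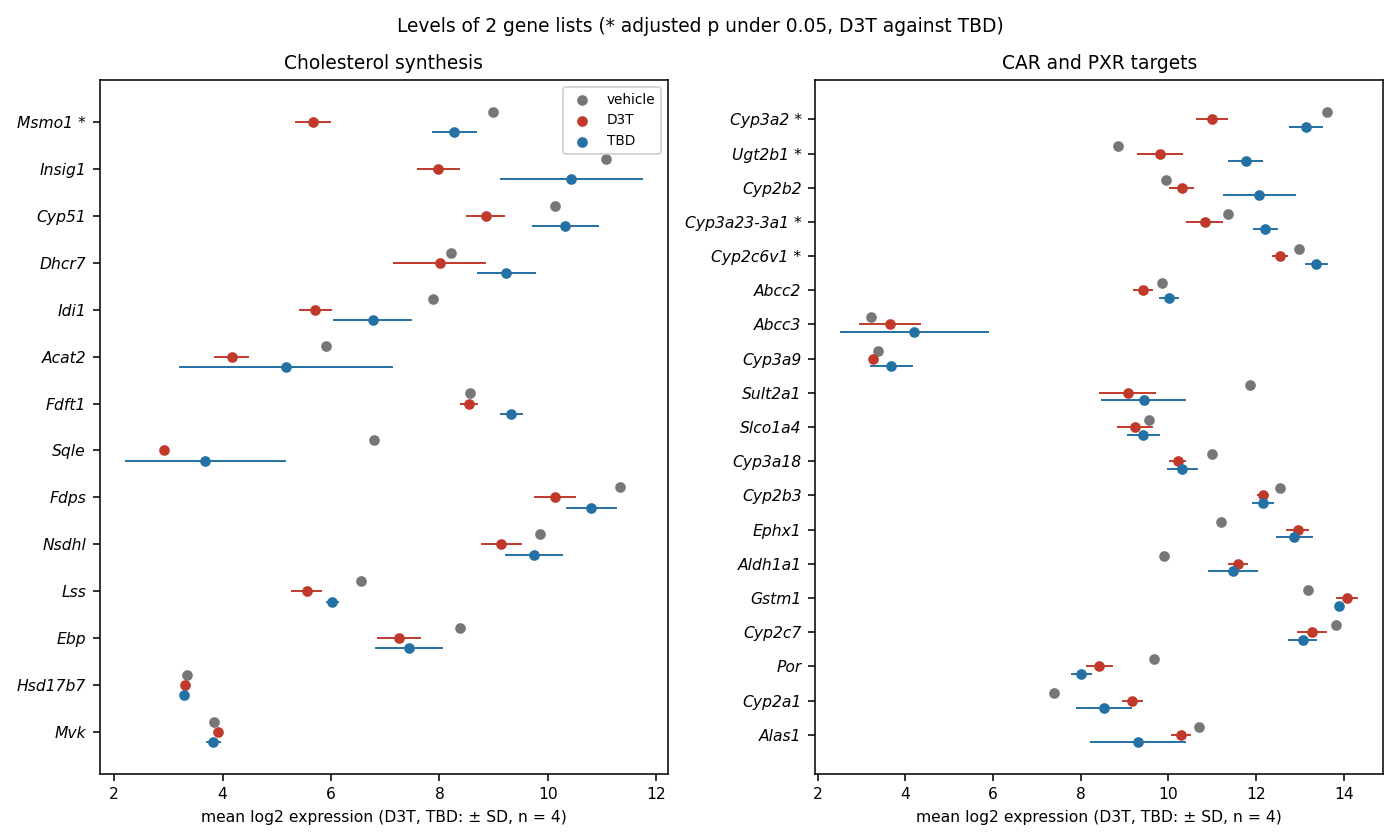
Mean log2 expression on the x axis of each tested gene of 2 lists, cholesterol synthesis on the left and CAR and PXR targets on the right, with bars of 1 SD over the 4 D3T (red) and the 4 TBD (blue) arrays and the vehicle mean in grey; a star marks an adjusted p under 0.05. Msmo1 sits at 5.67 with D3T and 8.28 with TBD, and Cyp3a2 at 10.99 and 13.15.

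Of the 14 tested genes of the cholesterol synthesis list, its enzymes and the regulator Insig1, 1 was lower with D3T and 0 were higher past the threshold. The difference was below 0 in 12, and the median was -0.77 against 0.06 over all genes. An unadjusted limma p under 0.05 was met by 9, and by 534 of all 5323 probe sets tested. The gene that passed was Msmo1, the sterol C4-methyl oxidase, which read 5.72, 5.42, 6.10 and 5.45 with D3T and 8.02, 8.07, 8.87 and 8.15 with TBD. The gap between the groups was wider than the spread within either. Msmo1 was 6.08-fold lower with D3T (-2.60, SE 0.37, adjusted p = 0.00384). It stood at 8.99 with vehicle, and the differences from it were -3.32 with D3T (adjusted p = 4.99e-05) and -0.72 with TBD (adjusted p = 0.252). A dimmer probe set of Msmo1 gave -1.72 (adjusted p = 0.0553).

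Of the 14, 6 had D3T and TBD values that did not overlap, where 8.38% of all genes did so. Apart from Msmo1 these are named after their values were seen. Insig1, which holds SREBP in the endoplasmic reticulum when sterols are plentiful and is itself an SREBP target, read 8.17, 8.28, 8.03 and 7.43 with D3T and 10.35, 10.11, 12.19 and 9.06 with TBD (-2.45, 95% interval -3.73 to -1.17, adjusted p = 0.0957). The TBD livers alone spanned over 3 log2 units, and without TBD replicate 4 the difference was -2.91 (adjusted p = 0.0495). Cyp51, lanosterol demethylase, read 9.07, 8.41, 9.17 and 8.76 with D3T and 9.88, 10.32, 11.16 and 9.92 with TBD (-1.47, interval -2.14 to -0.79, adjusted p = 0.0500493). This value lies at the threshold: without TBD replicate 1 it was -1.61 with an adjusted p of 0.0483, and under quantile normalization it also passed (adjusted p = 0.0377). Fdft1, squalene synthase, averaged 8.55 with D3T, 9.33 with TBD and 8.56 with vehicle on its brightest probe set (-0.78, adjusted p = 0.0897). Its dimmer probe sets averaged 5.81, 6.03 and 3.83 with D3T and 6.996, 6.98 and 4.51 with TBD. Their vehicle means were 7.10, 6.70 and 5.12, above D3T on each. They did not overlap between the compounds and did not pass (adjusted p = 0.130, 0.516 and 0.370). Which compound stood apart from vehicle thus depended on the probe set of Fdft1. Idi1, isopentenyl diphosphate isomerase, differed by -1.06 (adjusted p = 0.229) and Lss, lanosterol synthase, by -0.47 (adjusted p = 0.218).

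On their brightest probe sets the remaining members of the cholesterol list overlapped between the compounds. Dhcr7 and Fdps are named after their values were seen. Dhcr7, the last reductase of the pathway, differed by -1.23 (adjusted p = 0.201) and Fdps, farnesyl diphosphate synthase, by -0.67 (adjusted p = 0.382). A dimmer probe set of Fdps did not overlap, with means of 8.67 with D3T, 10.15 with TBD and 10.91 with vehicle. It gave -1.48 (interval -2.34 to -0.62, adjusted p = 0.142), and another, with overlap, gave -0.62 (adjusted p = 0.377). Sqle, squalene epoxidase, stood at 6.78 with vehicle and was below its array's median on all 4 D3T arrays and 3 of the 4 TBD arrays, so the compounds could not be ordered on it (-0.76, interval -2.00 to 0.48). Srebf1, the SREBP gene tied to lipogenesis, averaged 6.33 with D3T, 6.86 with TBD and 3.92 with vehicle. Its difference between the compounds was -0.52 (interval -1.41 to 0.36). Among 18 lipogenic genes 0 passed and the median was -0.02. An unadjusted limma p under 0.05 was met by 1 of the 18, and by 534 of all 5323 probe sets tested. Pnpla3, a lipid droplet protein named after its values were seen, had the widest gap of the 18 (-3.20, interval -6.07 to -0.34, adjusted p = 0.415).

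Among the 30 tested NRF2 targets, 1 was higher with D3T and 0 were lower, with a median of 0.16. Over all genes tested 0.193% were higher and 0.387% lower, with a median of 0.06. The difference was above 0 in 20 of the 30, and in 2046 of all 3104 genes. The NRF2 target that passed was Ptgr1, which reduces the double bond of alkenals and of eicosanoids. The D3T livers read 9.78, 9.96, 9.81 and 10.27 and the TBD livers 6.99, 8.80, 7.96 and 7.98. All TBD values lay below all vehicle values, which ran from 9.38 to 9.96. Ptgr1 was 4.06-fold higher with D3T (2.02, SE 0.33, adjusted p = 0.00984). It fell against vehicle with TBD (-1.73, adjusted p = 0.00298), and the difference was 0.29 with D3T (adjusted p = 0.602). The D3T values began inside the vehicle range and ended at 10.27, above it.

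Gstp1, Akr7a3, Nqo1 and Gsta3, for which dithiolethiones are best known, rose against vehicle with each compound, and none of them passed the test between the compounds. Gstp1, the pi class glutathione transferase, averaged 6.13 with vehicle and read 12.36, 12.02, 12.57 and 13.10 with D3T and 8.56, 10.69, 10.99 and 11.39 with TBD. The values did not overlap, and the interval ran from 0.85 to 3.36 around 2.11 (adjusted p = 0.157). The SD was 0.45 over the D3T, 1.27 over the TBD and 1.21 over the OLT arrays. A second, dimmer probe set of Gstp1 gave 4.10 (adjusted p = 0.0999), the widest gap of any probe set that did not pass. Akr7a3, the aldo-keto reductase that reduces aflatoxin dialdehyde, averaged 13.23 ± 0.34 with D3T, 12.03 ± 0.41 with TBD and 8.46 with vehicle. Its values did not overlap either (1.203, interval 0.52 to 1.88, adjusted p = 0.13). Gsr, glutathione reductase, named after its values were seen, averaged 8.01 and 7.10 with no overlap (0.91, adjusted p = 0.377). With array weights, Gstp1 (2.23, adjusted p = 0.0404) and Akr7a3 (1.29, adjusted p = 0.0375) passed, and the NRF2 targets higher with D3T came to 3. That count was 0 in the fit to the 8 arrays alone, where Ptgr1 had an adjusted p of 0.0813, and 0 after each array was centred on its median.

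Nqo1, the quinone reductase, read 8.29, 8.13, 7.29 and 8.23 with D3T and 4.53, 7.56, 6.90 and 8.79 with TBD. The 4 TBD livers ran from the vehicle range (4.02 to 4.77) to above every D3T value, and the interval of the difference was -0.44 to 2.52. Gsta3, an alpha class transferase active on aflatoxin epoxide, averaged 3.20 with vehicle, 11.50 ± 0.42 with D3T and 10.74 ± 0.77 with TBD (0.76, interval -0.19 to 1.72). Gclc and Gclm, the subunits of glutamate-cysteine ligase, differed by 0.74 (-0.39 to 1.87) and 0.60 (-0.04 to 1.23). A dimmer probe set of Gclm had the other sign, -0.28 (-1.36 to 0.80), and another gave 0.42 (-0.20 to 1.05). The former averaged 8.60 with D3T, 8.88 with TBD and 10.28 with vehicle. Txnrd1, thioredoxin reductase, differed by -0.10 (-1.05 to 0.85), and by 0.40 without TBD replicate 4. A dimmer probe set of Txnrd1 gave 0.19 (-1.07 to 1.45). For Gstp1, Akr7a3, Nqo1 and Gsta3 the interval held differences above 2-fold, so these arrays do not show that the compounds act alike there.

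The median vehicle level was 8.81 over the NRF2 targets and 4.79 over all genes tested. For 16 of the 30 NRF2 targets (53.3%) the interval did lie within 2-fold, a smaller share than the 89.1% over all genes tested. Beside Ephx1, Gstm1 and Aldh1a1, they included Gsta1 (-0.06, interval -0.40 to 0.28) and Gstm2 (0.27, interval 0.01 to 0.52), both transferases. Prdx1, a peroxiredoxin, differed by 0.11 (-0.13 to 0.35), and Cat, catalase, by -0.12 (-0.61 to 0.38). Dimmer probe sets had the other sign for Gsta1 (0.06 and 0.08), Gstm2 (-0.10) and Cat (0.16). Me1 and Idh1, which supply NADPH, differed by -0.05 (-0.75 to 0.66) and -0.16 (-0.37 to 0.06), and Tkt, transketolase, by 0.25 (-0.43 to 0.93). Dimmer probe sets of Tkt and Me1 were not all held within 2-fold. For Tkt a second gave 0.89 (0.18 to 1.59, adjusted p = 0.352), with D3T wholly above TBD. For Me1 the intervals of others were -1.46 to 0.38 and -1.03 to 0.41. Over 15 glutathione transferases 0 passed either way and the median was 0.17. An unadjusted limma p under 0.05 was met by 4 of them, and by 534 of all 5323 probe sets tested. Of the 15, 12 were held within 2-fold (80%), where 89.1% of all genes tested were. Mgst1, a microsomal transferase named after its values were seen, read 13.51 to 13.58 with D3T and 12.81 to 13.34 with TBD (0.35, adjusted p = 0.307).

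**Figure D3:**
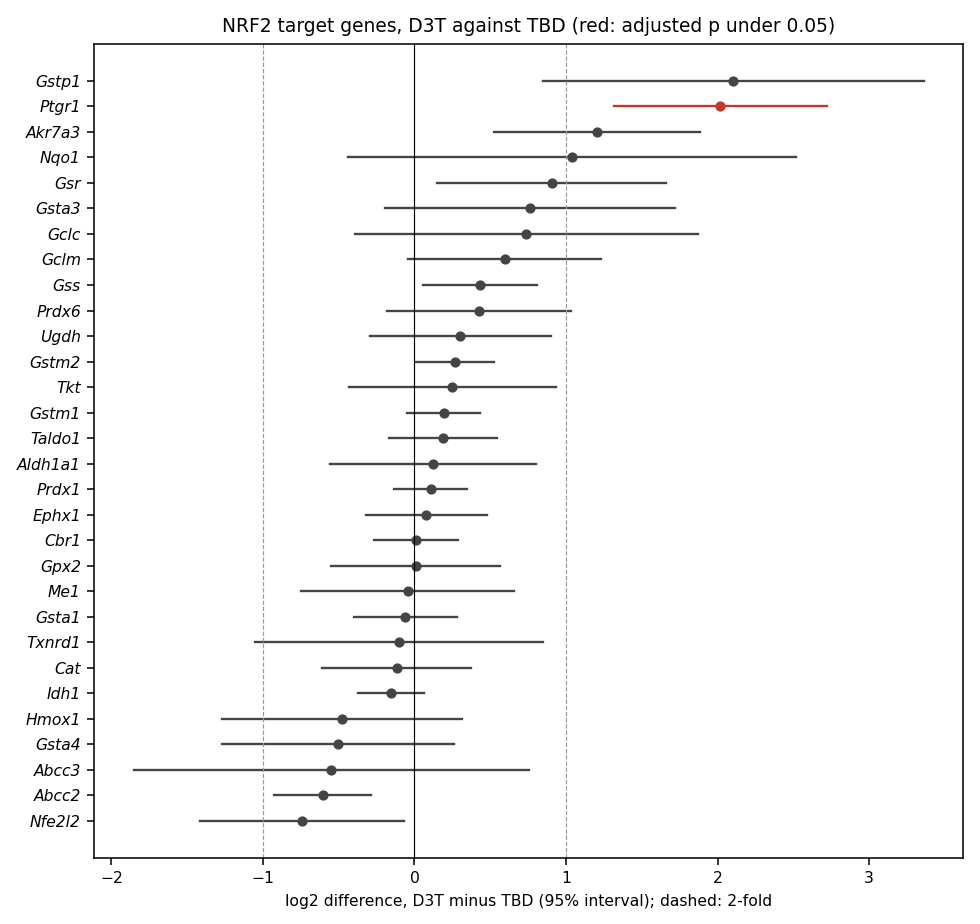
The log2 difference, D3T minus TBD, on the x axis for each of the 30 tested NRF2 targets, with its 95% interval; dashed lines mark 2-fold and red an adjusted p under 0.05. Ptgr1, at 2.02, is the red point, Gstp1 lies above it at 2.11 with an interval of 0.85 to 3.36, and 16 intervals lie within the dashed lines.

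Of the metabolic enzymes outside these lists, Pck1, which encodes the cytosolic phosphoenolpyruvate carboxykinase that controls gluconeogenesis, read 12.15, 12.37, 12.27 and 12.04 with D3T and 11.19, 11.17, 11.04 and 11.45 with TBD. The D3T values mixed with the vehicle values (mean 12.20) and the TBD values lay below both. Pck1 was 1.99-fold higher with D3T (0.99, SE 0.13, adjusted p = 0.00162), and fell against vehicle with TBD (-0.99, adjusted p = 0.000217). It was the only one called of 35 genes of gluconeogenesis and amino acid breakdown, whose median was 0.15. Of all genes tested 0.193% were called higher with D3T, and the median was 0.06. Hsd17b2, which oxidises estradiol and testosterone to less active ketones, read 11.72, 12.15, 12.02 and 11.69 with D3T and 9.82, 11.08, 10.42 and 9.19 with TBD. It was 3.41-fold higher with D3T (1.77, SE 0.32, adjusted p = 0.0183), and fell against vehicle with TBD (-2.07, adjusted p = 0.000746). Hsd17b2 did not pass without D3T replicate 2 (adjusted p = 0.0657) or D3T replicate 3.

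On the list of genes dependent on growth hormone or dimorphic by sex, 1 of 34 was higher with D3T, Hsd17b2. On it 2 were lower, Cyp3a2 and Cyp2c6v1, and its median was -0.07. Of all genes tested 0.193% were higher and 0.387% lower, with a median of 0.06. Cyp2c11, the male-specific P450, named after its values were seen, differed by -0.32 (adjusted p = 0.542). Agtr1a, the angiotensin II receptor, is on no list and was lower with D3T: it averaged 8.02 ± 0.21 with D3T, 8.92 ± 0.27 with TBD and 9.12 with vehicle (-0.90, SE 0.18, adjusted p = 0.0357). Agtr1a still passed when D3T replicate 4 or TBD replicate 1 was left out, but not without any other single array, with an adjusted p of 0.114 without D3T replicate 2. Its 3 other probe sets gave -0.56, -0.68 and -0.33, and none passed.

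Id2 and Zfp36l1 were lower with D3T among 24 immediate early genes, whose median was 0.01. Of all genes tested 0.387% were called lower with D3T, and the median was 0.06. Id2, an inhibitor of basic helix-loop-helix factors, read 8.07, 7.80, 8.05 and 8.03 with D3T and 9.57, 9.15, 9.58 and 10.49 with TBD. The vehicle livers, from 8.29 to 8.67, lay between the groups. Id2 was 3.27-fold lower with D3T (-1.71, SE 0.25, adjusted p = 0.00559), and rose against vehicle with TBD (1.15, adjusted p = 0.00789). Its relative Id3, named after its values were seen, differed by -0.92 with no overlap (adjusted p = 0.168). Zfp36l1, which binds and destabilises mRNAs with AU-rich elements, averaged 9.66 ± 0.34 with D3T, 10.67 ± 0.25 with TBD and 10.30 with vehicle (-1.01, SE 0.19, adjusted p = 0.0217). Zfp36l1 still passed when D3T replicate 1, D3T replicate 4 or TBD replicate 1 was left out, but not without any other single array, with an adjusted p of 0.075 without TBD replicate 4. Its second probe set overlapped (-0.76, adjusted p = 0.141), and Zfp36l1 did not pass when its probe sets were averaged. Btg1, an antiproliferative gene named after its values were seen, differed by -0.75 with no overlap (adjusted p = 0.143).

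Efna1, Tjp1, Ifitm3 and Ctdsp1, also on no list, were lower with D3T. Efna1, the membrane-bound ligand ephrin A1, read 6.64, 6.88, 6.93 and 6.00 with D3T and 7.62, 7.75, 8.35 and 8.13 with TBD, around a vehicle mean of 7.17. It was 2.55-fold lower with D3T (-1.35, SE 0.22, adjusted p = 0.00984). A second probe set of Efna1, below the array median on all 4 D3T arrays, gave -1.12 (adjusted p = 0.377), and the gene did not pass when both were averaged. Tjp1, the tight junction scaffold ZO-1, read 5.73, 5.62, 5.95 and 5.71 with D3T and 6.53, 6.65, 6.72 and 7.45 with TBD. Tjp1 was 2.12-fold lower with D3T (-1.09, SE 0.18, adjusted p = 0.0111) and fell against vehicle with D3T (-1.20, adjusted p = 0.000501), while the difference from vehicle with TBD was -0.11 (adjusted p = 0.946).

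Ifitm3, an interferon-induced membrane protein, averaged 9.51 with vehicle, 7.40 ± 0.27 with D3T and 8.66 ± 0.61 with TBD, and was 2.39-fold lower with D3T (-1.26, SE 0.25, adjusted p = 0.0376). It fell against vehicle with each compound, by -2.11 with D3T (adjusted p = 0.000101) and by -0.85 with TBD (adjusted p = 0.0402). Ifitm3 still passed when TBD replicate 1 or TBD replicate 2 was left out, but not without any other single array, with an adjusted p of 0.115 without TBD replicate 3. Ctdsp1, a phosphatase of the RNA polymerase II tail, had the smallest difference of the 12 (-0.46, SE 0.09, adjusted p = 0.0376). It still passed when D3T replicate 3 or TBD replicate 1 was left out, but not without any other single array, with an adjusted p of 0.115 without TBD replicate 3. Its second probe set gave -0.42 (adjusted p = 0.344), and Ctdsp1 did not pass when both were averaged.

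The other genes higher with D3T differed by less than 2-fold. Mif, a cytokine with tautomerase activity, read 11.61, 11.52, 11.66 and 11.67 with D3T and 11.21, 11.33, 11.05 and 10.74 with TBD, far above the vehicle values of 9.46 to 9.62. Mif rose with each compound against vehicle, by 2.07 with D3T (adjusted p = 4.87e-08) and by 1.54 with TBD (adjusted p = 1.38e-06), and was 1.45-fold higher with D3T than with TBD (0.53, SE 0.11, adjusted p = 0.0396). Mif still passed when TBD replicate 1 or TBD replicate 2 was left out, but not without any other single array, with an adjusted p of 0.115 without TBD replicate 3. Pebp1, the RAF kinase inhibitor protein, averaged 11.36 ± 0.15 with D3T, 10.65 ± 0.20 with TBD and 10.47 with vehicle (0.71, SE 0.14, adjusted p = 0.0374). Pebp1 still passed when TBD replicate 2 was left out, but not without any other single array, with an adjusted p of 0.123 without D3T replicate 2, and its second probe set gave 0.34 (adjusted p = 0.428). RT1-A3, an MHC class I gene with close relatives, averaged 4.85 with D3T and 4.29 with TBD (0.57, SE 0.12, adjusted p = 0.0496). RT1-A3 still passed when D3T replicate 4 or TBD replicate 2 was left out, but not without any other single array, with an adjusted p of 0.17 without D3T replicate 2.

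**Figure D4:**
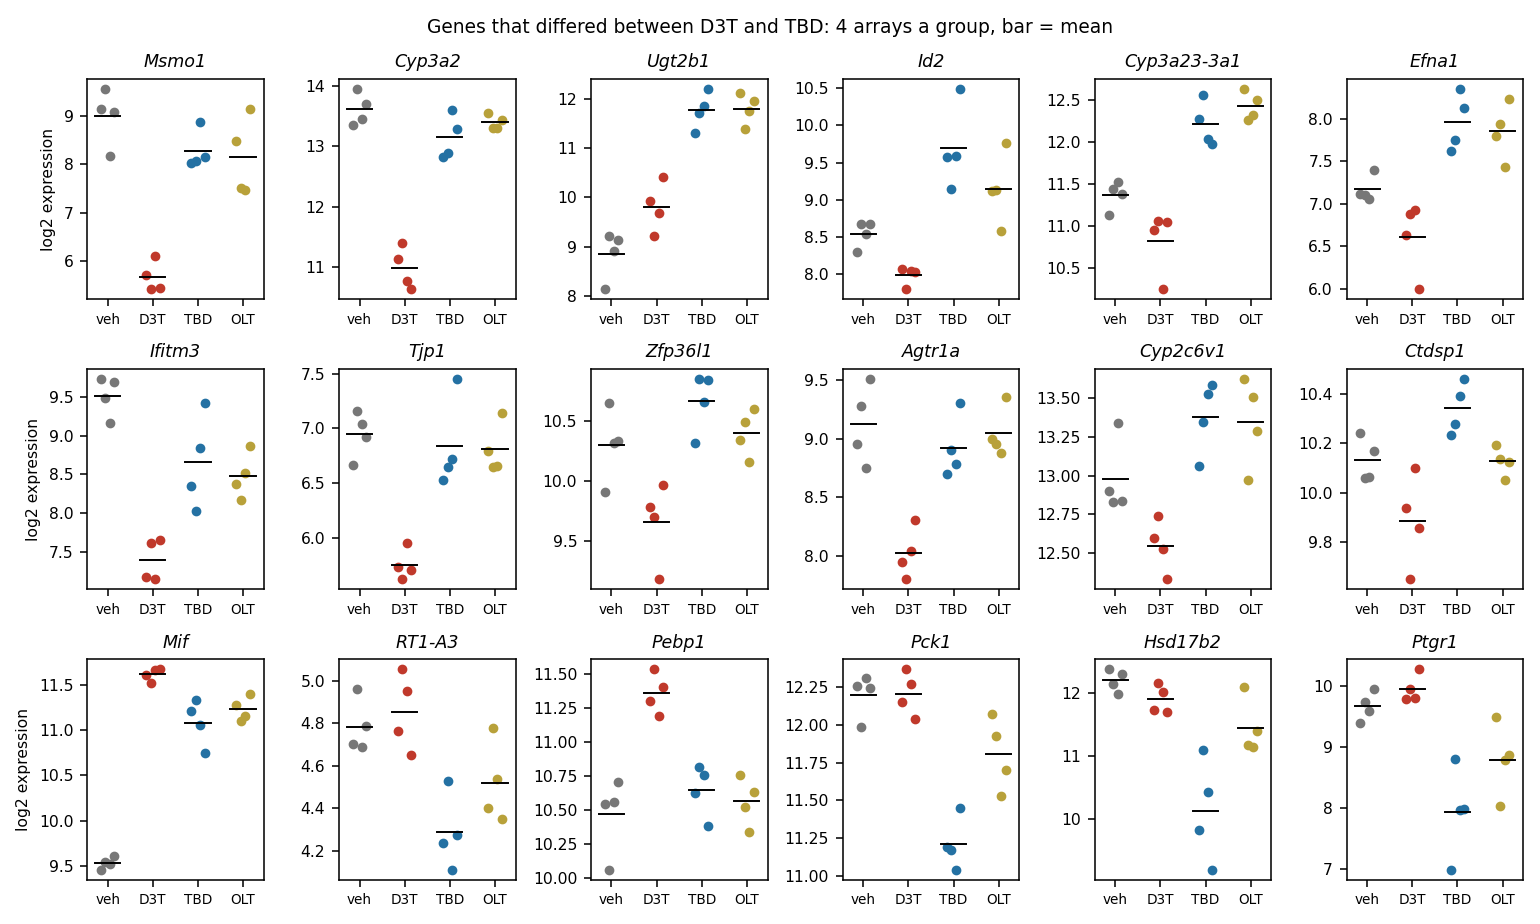
Log2 expression on the y axis of the 18 genes that differed between D3T and TBD, 1 point per array and a bar at the mean of each group of 4: vehicle (veh) in grey, D3T in red, TBD in blue and OLT in gold. In every panel the red and blue points do not overlap; in Ptgr1, Hsd17b2 and Pck1 the red points lie near the grey ones and the blue points lie lower.

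A further 5 genes passed on a probe set that was not their brightest, beside Cyp2b2, and are named after their values were seen. Adh1c, an alcohol dehydrogenase, averaged 11.49 with D3T and 10.03 with TBD on the called probe set (1.45, SE 0.31, adjusted p = 0.0493). Slc22a7, an organic anion transporter, was higher with D3T by 0.57 (adjusted p = 0.0479). Lower with D3T were Cited2, a transcriptional coregulator (-0.91, adjusted p = 0.00695), Adgrl2, an adhesion receptor (-0.96, adjusted p = 0.0164), and Mapk6, an atypical kinase (-0.999, adjusted p = 0.0374). The brightest probe sets of these genes did not pass. They gave 1.16 for Adh1c (adjusted p = 0.0561), 0.40 for Slc22a7 (0.415), -1.09 for Cited2 (0.308), -0.46 for Adgrl2 (0.308) and -0.84 for Mapk6 (0.218). On its called probe set Cited2 read 3.31 to 3.53 with D3T, below its array's median on 3 of the 4 arrays. The size of its difference is poorly measured there, and another brighter probe set gave -0.86 (adjusted p = 0.388). The called probe set of Cited2 passed without each of the 8 arrays in turn. The others each missed the threshold without at least 1 array, with adjusted p-values of 0.0597 for Adgrl2 without D3T replicate 3, 0.0951 for Mapk6 without TBD replicate 3, and 0.161 for both Slc22a7 and Adh1c without D3T replicate 2.

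Of the 18 genes, 9 passed without each of the 8 arrays in turn: Cyp3a2, Cyp3a23-3a1, Ugt2b1, Msmo1, Id2, Efna1, Tjp1, Pck1 and Ptgr1. In the fit to the 8 D3T and TBD arrays alone, 3 passed, Cyp3a2, Msmo1 and Pck1. After each array was centred on its median, 7 passed: Cyp3a2, Cyp3a23-3a1, Ugt2b1, Msmo1, Id2, Efna1 and Pck1. With the probe sets of each gene averaged, Pebp1, RT1-A3, Efna1, Zfp36l1, Agtr1a, Cyp2c6v1 and Ctdsp1 did not pass.

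Fatty acid oxidation gave no call, though it held several wide gaps. Of 40 genes tested in the list of PPAR-alpha targets and fatty acid oxidation, 0 passed and the median was 0.21. The difference was above 0 in 34, and in 2046 of the 3104 genes tested. An unadjusted limma p under 0.05 was met by 7, and by 534 of all 5323 probe sets tested. Acaa1b, a peroxisomal thiolase, read 10.49, 10.23, 10.71 and 11.05 with D3T and 8.91, 9.63, 9.47 and 9.27 with TBD, above a vehicle mean of 7.82. The groups did not overlap (1.30, interval 0.67 to 1.94, adjusted p = 0.0638), and Acaa1b passed after quantile normalization (adjusted p = 0.0382). The next 3 were named after their values were seen, and none of them overlapped between the compounds. Hacl1, which cleaves branched and hydroxylated fatty acids, averaged 8.32 with D3T, 6.79 with TBD and 9.62 with vehicle (1.53, adjusted p = 0.105). Eci1, an enoyl-CoA isomerase, differed by 0.93 (adjusted p = 0.142), and Acaa2, a mitochondrial thiolase, by 0.59 (adjusted p = 0.0616).

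Zfp354a, a zinc finger protein abundant in adult liver and kidney, had the widest gap above 0 of any gene on its brightest probe set, without passing. It read 6.53, 7.66, 7.13 and 5.64 with D3T and 4.19, 4.23, 4.30 and 3.41 with TBD, against 8.63 to 9.41 with vehicle. The values did not overlap, but the D3T livers themselves spanned 2 log2 units and the test gave 2.71 (interval 1.41 to 4.01, adjusted p = 0.0597). Without D3T replicate 4, Zfp354a passed (3.08, adjusted p = 0.0495). It fell against vehicle with each compound (-2.34 with D3T, adjusted p = 0.0149; -5.05 with TBD, adjusted p = 0.00016). Dbp, a clock-driven transcription factor named after its values were seen, read 7.91, 8.80, 8.13 and 7.73 with D3T and 6.84, 6.49, 6.70 and 4.60 with TBD (1.99, adjusted p = 0.134), while the other 5 clock genes tested differed by -0.23 to 0.48.

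Cyp1a2, Cox6c and Rps24 passed against vehicle with each compound and did not pass between them. Cyp1a2, the hepatic caffeine oxidase, averaged 11.23 with vehicle, 9.03 with D3T and 9.46 with TBD (-0.43, interval -1.03 to 0.17). Cox6c, a respiratory chain subunit, averaged 7.37, 10.58 and 10.43 (0.15, interval -1.47 to 1.77), with TBD replicate 4 at 8.38 and a difference of -0.53 without it. Rps24, a ribosomal protein, averaged 4.26, 6.90 and 7.42 (-0.53, interval -1.67 to 0.62). Cyp7a1, which starts the main route from cholesterol to bile acids and passed against vehicle with neither compound, differed by 0.35 (interval -1.01 to 1.71). Fgg, the fibrinogen gamma chain, named after its values were seen, averaged 12.68 with D3T, 13.20 with TBD and 13.24 with vehicle, with no overlap (-0.52, adjusted p = 0.0553); it passed without TBD replicate 2 (-0.63, adjusted p = 0.0106).

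On the lists of the larger cell machines the share of genes held within 2-fold lay near that over all genes. Of 51 respiratory chain genes 49 had an interval within 2-fold, of 39 ribosomal protein genes 36, of 27 proteasome genes 24, and of 48 plasma protein and acute phase genes 46, where 2766 of all 3104 genes did (89.1%). On these 4 lists 0 of 165 genes passed, and the medians were 0.02, 0.05, -0.11 and -0.07. An unadjusted limma p under 0.05 was met by 26 of the 165, and by 534 of all 5323 probe sets tested. Of the 48 plasma protein and acute phase genes, 9 did not overlap between the compounds, where 8.38% of all genes did not, and 12 had an unadjusted limma p under 0.05. All 7 urea cycle genes and all 4 genes of the NADPH list were held within 2-fold on their brightest probe sets. Among 23 genes of the unfolded protein and heat shock response, 0 passed (4 had an unadjusted limma p under 0.05) and the median was 0.03.

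In the fit used throughout, markers of the cell types that a liver holds gave no call either way on any of 11 lists (0 of 79 genes). An unadjusted limma p under 0.05 was met by 8 of the 79, and by 534 of all 5323 probe sets tested. Alb and Serpina1, hepatocyte products, differed by 0.21 (-0.02 to 0.44) and 0.05 (-0.15 to 0.25). That probe set of Alb gave the highest value on each D3T and TBD array, with an SD of 0.006 over the D3T arrays. Other probe sets of Alb gave 0.33 (0.11 to 0.56, adjusted p = 0.226) and 0.27 (0.06 to 0.48, adjusted p = 0.352), without overlap. Over 12 Kupffer cell and macrophage markers the median was 0.02, and their summed linear level was 1850 to 2220 in the D3T livers, 2055 to 3125 in the TBD livers and 3380 to 4623 with vehicle. C1qb, a complement chain, differed by -0.18 and Cd74, the invariant chain, by -0.10, on a list that ran from -0.75 to 0.61. Over 16 stellate cell and fibroblast markers the sums were 6620 to 7661 with D3T and 7332 to 9442 with TBD. These linear sums rest mostly on the brightest markers, Sparc and Fn1, at means of 12.01 and 11.13 with D3T. Other probe sets of Sparc averaged 5.66, 7.39 and 8.73 with D3T. Col1a1, a collagen chain, was below its array's median on all 4 D3T arrays and on 1 TBD array (-1.17, interval -2.56 to 0.22), while Sparc and Fn1 differed by -0.30 and -0.18. The 6 endothelial markers summed to 212 to 444 with D3T and 279 to 524 with TBD. Fcgr2b, also on the Kupffer cell list and the lowest on both, differed by -0.75 (adjusted p = 0.412) and Kdr by -0.09. The 7 cholangiocyte markers summed to 645 to 861 and 563 to 785, with Krt8 at 0.24 and Slc4a2 at -0.30.

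Red blood cell markers were lower with D3T than with TBD on average, with overlap. Hbb, a globin chain, read between 12.002 and 12.55 with D3T and between 12.49 and 13.64 with TBD (-0.74, adjusted p = 0.244), and Hbb-b1 differed by -1.06 (adjusted p = 0.191). With array weights both passed, Hbb at -0.89 (adjusted p = 0.0389) and Hbb-b1 at -1.21 (adjusted p = 0.0492). The 3 markers tested summed to 4491 to 6757 in the D3T livers, 6413 to 14718 in the TBD livers and 6792 to 11071 with vehicle. T cell, B cell and neutrophil markers were dim: Cd3g, Cd247, S100a8 and Defa5 averaged 3.46 to 3.88, near the array medians, and Cd79b averaged 4.58 with D3T and 4.99 with TBD. Of adipocyte, muscle and pancreas markers, Cfd differed by -0.20, Lep by 0.13, Amy2a3 by -0.14 and Reg1a by 0.07. The part of any of these cell types in the differences above was not tested.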

How the data were processed

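Total RNA from liver was hybridised to 1-colour Affymetrix rat arrays. The deposited log2 values were made by the authors with GCRMA according to the submitters' processing notes, which name no version; GCRMA shrinks dim probe sets. They were used as they stand, with 0 columns outside the 16 samples. Of 8740 probe sets, the 5323 that exceeded the 40th percentile of 4 or more of the 16 arrays were tested with limma 3.58.1 in R 4.3.3: group means of all 4 groups, contrast D3T minus TBD, eBayes, two-sided, Benjamini-Hochberg over all tested, adjusted p under 0.05. Intervals are unadjusted 95% intervals of that fit, which was tested on simulated data. No 2 arrays held the same values. Of the 8740, 7006 had 1 gene symbol, 308 several and 1426 none in the platform annotation; only those with 1 symbol were named, on the probe set with the highest mean over 16 arrays. The number of arrays limits the precision.

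The members and lists were chosen with earlier results of these data known. Genes named by rule were those past the threshold without overlap (up to 15 each way), 22 listed genes, up to 3 called per list, the brightest 2 per cell type list and the brightest 10 NRF2 targets held within 2-fold; any other is marked as named after its values were seen. Alternatives were another filter, the 8 arrays alone, a replicate block, quantile normalization, centring, a floor, trended and robust priors, array weights, a fold threshold, averaged probe sets and leaving out arrays. Promoters are RefSeq's, build GRCr8.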

Additional observations from a re-analysis of the deposited data

Results flagged for a closer look

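In 19 of the 182 groups of 4 arrays examined for the named genes, 1 array lay far from the other 3, by a rule that chance meets in about 1 group in 20; 11 of the 19 were TBD replicate 4. On that array the high values were Cyp1a2 at 9.84, Sqle at 5.90, Sult2a1 at 10.85 and the called probe set of Cyp2b2 at 13.29. The low values on it were Zfp354a at 3.41, Srebf1 at 6.24, Gstm1 at 13.78, Me1 at 9.94, Dbp at 4.60, Cyp2c11 at 12.82 and Mgst1 at 12.81. The values of Dbp, Cyp2c11 and Mgst1 were of genes named after their values were seen.

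TBD replicate 3 stood above the other TBD arrays for Msmo1 at 8.87, Slc4a2 at 7.54 and Idh1 at 11.34, and TBD replicate 2 for Cd79b at 5.87. Among the D3T arrays, replicate 1 was low for C1qb at 8.68, replicate 2 for Id2 at 7.80, and replicate 3 for Cyp3a23-3a1 at 10.25 and Nqo1 at 7.29. Msmo1, Id2 and Cyp3a23-3a1 passed the test without these arrays.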

How the results depend on the processing

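Against 35 probe sets and 18 genes past the threshold (10 probe sets higher, 25 lower with D3T), the fit to the 8 D3T and TBD arrays alone gave 8 probe sets and 3 genes (2 higher, 6 lower), centring gave 13 and 7 (2 and 11), and a limma test against 1.2-fold gave 11 and 8 (2 and 9). Array weights gave 124 and 67 (70 and 54), and the covariate of array scale, chosen after seeing the data, 117 and 55 (85 and 32). Quantile normalization gave 20 higher. Both array weights and the covariate kept all 35 probe sets; the cause of the higher counts was not tested. Without 1 array at a time, the probe sets past the threshold ran from 19 to 34 (3 to 9 higher, 15 to 26 lower) and the genes from 10 to 19. The count held within 2-fold, 4665 of 5323, was 8061 of 8740 with no filter and 2987 of 3619 with the stricter filter. The share held within 2-fold was thus smaller where more of the dim probe sets were left out. The gap in array medians ran from 0.037 to 0.084.

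The replicate numbers in the titles were also fitted as a replicate block, which gave 29 probe sets, 5 of them higher with D3T, and 15 genes. Deviations of same-numbered D3T and TBD arrays correlated at 0.01, -0.03, 0.03 and 0.10, and not every array matched its own number best, so the numbers are not taken as pairs.

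Of 1992 values of named genes under the alternatives, 1745 kept direction and side of the threshold, 158 lost it, 37 passed newly and 52 changed sign. Called genes kept their sign throughout. Sign changes arose in 17 genes that had not passed. Leaving out 1 array at a time gave ranges of -0.0054 to 0.10 for Serpina1, -0.027 to 0.26 for Reg1a, -0.405 to 0.405 for Txnrd1, -0.53 to 0.52 for Cox6c, -0.46 to 0.11 for Me1, -0.33 to 0.14 for Cd74, -0.33 to 0.10 for Cat, -0.21 to 0.064 for Gsta1, -0.092 to 0.20 for Ephx1, -0.47 to 0.20 for Kdr, -0.020 to 0.24 for Lep, -0.15 to 0.62 for Cyp7a1, -0.145 to 0.25 for Aldh1a1, -0.57 to 0.10 for Sult2a1 and -0.091 to 0.45 for Tkt. Without OLT replicate 1 and TBD replicate 4, Reg1a was at -0.017, Txnrd1 0.405, Cox6c -0.53, Cd74 0.14, Gsta1 0.014, Kdr 0.10, Sult2a1 0.10 and Tkt -0.091, and 14 probe sets were higher with D3T. Quantile normalization put Alb at 0, Serpina1 at -0.042 and Reg1a at -0.019, and centring put Serpina1 at -0.014. Array weights gave Reg1a -0.069, Txnrd1 0.087 and Cox6c -0.22; the covariate gave -0.032, 0.055 and -0.061. Averaging probe sets gave Txnrd1 0.044, Cat 0.019, Gsta1 0.025 and Fn1 0.38. For the cause of these changes, no test was made. No detection calls were used, so dim probe sets have no measured floor.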
